A study of Homo sapiens with 12 samples.

Results

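The comparison described here is the addition of pargyline to SAHA in MDA-MB-231 cells: 3 arrays of cells given both drugs, which the labels call COMBO, against 3 arrays of cells given SAHA alone. These are 6 of the 12 arrays of the study, and all 11963 genes that could be named from a probe set of their own were compared, each by its brightest probe set. MDA-MB-231 is a widely used human cell line from a breast cancer that lacks hormone receptors and HER2 amplification. The cells of every group were treated for 24 h: SAHA cells with 5 uM SAHA, COMBO cells with 5 uM SAHA and 2.5 mM pargyline, pargyline cells with 2.5 mM pargyline, and control cells with the vehicle DMSO. Each group held 3 arrays that the labels call biological replicates, and nothing in the labels says how the cultures were kept apart, so p-values measure the spread between these samples. All groups are of a single cell line, and each drug was used at a single dose and time.

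SAHA (vorinostat) inhibits histone deacetylases, the enzymes that remove acetyl groups from histones and other proteins. Pargyline inhibits the monoamine oxidases, and at high concentrations it can also inhibit LSD1 (KDM1A), a histone demethylase of the same family of flavin enzymes that works in corepressor complexes beside the deacetylases HDAC1 and HDAC2. Setting COMBO against SAHA therefore asks what pargyline changes in cells that are also given a deacetylase inhibitor. The sample labels give no order of the drugs. Pargyline "added" to SAHA, and values given as SAHA and then COMBO, compare groups and not times.

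Among the line's known markers, the mesenchymal filament gene VIM lay between 14.79 and 14.90 on the log2 scale in the 6 arrays. The epithelial cadherin CDH1 lay between 2.03 and 2.15, ESR1 between 3.05 and 3.17 and PGR between 2.12 and 2.20. CDH1, ESR1 and PGR were thus near the floor of the arrays. Of 9 line markers measured, 1 rose with pargyline added, the mesenchymal marker CD44 (0.63), and none fell. The CD44 call was lost without SAHA replicate 1 or 2 (adjusted p 0.0517 and 0.0538). The 6 markers low in this line changed by -0.67 to -0.04, and none passed. Levels of the other line markers are not given here. Markers of leukocytes (5 genes), endothelium (4 genes) and fibroblasts (6 genes) held no gene that passed the test, and the log2 of their summed intensities lay between 4.64 and 4.74, between 4.47 and 4.72, and between 6.74 and 6.88 over the SAHA and COMBO arrays. As a sign of RNA quality, the actin probe sets at the 3' end exceeded those at the 5' end by 0.84 ± 0.07 (log2, SD, n = 3) with SAHA and by 0.89 ± 0.05 with both drugs, an exact two-sided permutation p of 0.4, where 0.1 is the smallest that 3 arrays against 3 can give.

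Adding pargyline to SAHA raised genes of cholesterol and fatty acid synthesis, of the ATF4 amino acid response, of protein folding in the endoplasmic reticulum, of the hypoxia response and of lysosomes, and it lowered genes of mitosis, DNA replication and DNA repair. A gene is said to have risen or fallen where limma's moderated two-sided test passed 0.05 after Benjamini-Hochberg adjustment of the p-values of every gene tested. Of the 11963 genes, 943 rose (7.88%) and 1042 fell (8.71%), 16.6% in all. Counts given for lists below are to be read beside these shares, since a list near them does not differ from genes at large. At least 2-fold changes were found for 131 of the risen genes (1.1% of all genes) and 98 of the fallen genes (0.819%). The 3 COMBO values did not overlap the 3 SAHA values for 4499 genes (37.6%), 1794 with COMBO higher (15%) and 2705 with COMBO lower (22.6%). Of the 1985 genes that passed, 1960 did not overlap, so a lack of overlap adds little to a call. The median gene differed by -0.02 and the median standard error was 0.077, both on the log2 scale. COMBO replicate 2 lay farthest from the SAHA arrays and COMBO replicate 3 nearest: the mean level of the risen genes was 9.57, 9.64 and 9.53 in COMBO replicates 1 to 3, against 8.94 to 8.95 with SAHA. Without COMBO replicate 2, 607 genes rose and 632 fell. Fitted to the 6 arrays of this comparison alone, without the spread of the other 6, 616 rose and 614 fell. Genes named here whose calls did not pass in that fit (adjusted p 0.0518 to 0.145) were EVI2B, NR4A1, HMMR, OLFML3, C11orf71, PARP16, NCAPH, ALDH5A1, ACSL1, SLC7A11, HERPUD1, PDK1, AKR1C2, LIG1, MCM10, BRIP1, EXO1, CDKN1A, BAX, FOS, IFI44, S100A2, PLAUR, BHLHE40, BAMBI, ABAT, CD44, KDM1A, HDAC2 and HDAC3.

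The 12 largest rises were S100P, ANGPTL4, CHAC1, HMOX1, NR4A1, SLPI, IFI35, DDIT3, CEMIP, FASN, HMGCS1 and EVI2B, among genes whose groups did not overlap and whose mean in at least 1 group exceeded the level of the median gene, 7.06. S100P, a calcium-binding protein that many carcinomas secrete, read 5.49, 5.51 and 5.49 with SAHA and 8.22, 9.83 and 9.75 with both drugs. Its rise of 3.77 ± 0.47 (log2, SE, adjusted p = 0.00133), 13.6-fold, was the largest of these. The SAHA arrays were nearly equal and COMBO replicate 1 was the lowest of its group. ANGPTL4, a secreted inhibitor of lipoprotein lipase, rose from 5.51, 5.72 and 5.20 to 8.74, 9.04 and 8.67, a change of 3.34 ± 0.28 (adjusted p = 0.000497), with little spread in either group.

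HMOX1, the heme oxygenase that degrades heme and is induced by oxidative stress, read 10.15, 10.04 and 9.70 with SAHA and 12.53, 12.98 and 12.37 with both drugs, a rise of 2.67 ± 0.35 (adjusted p = 0.00161). SLPI, a secreted inhibitor of leukocyte proteases, read 6.25, 6.57 and 5.95 with SAHA and 8.20, 9.14 and 8.90 with both drugs (2.49 ± 0.27, adjusted p = 0.000799). CEMIP, a hyaluronan-binding protein, rose by 2.13 ± 0.35 (adjusted p = 0.00346) and EVI2B, a membrane protein, by 1.98 ± 0.34 (adjusted p = 0.00445). The calls of these 4 genes held when any of the 6 arrays was left out. That their groups did not overlap was a condition of their choice.

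KLF2, a zinc finger transcription factor that opposes proliferation and inflammatory signalling, fell more than any other gene. Its values were 9.86, 10.93 and 10.86 with SAHA and 5.64, 5.76 and 6.48 with both drugs, a change of -4.59 ± 0.30 (adjusted p = 0.000284), or 24.0-fold lower. With DMSO it had read 9.28, 9.26 and 9.32, and with pargyline alone 8.77, 8.59 and 9.13, so the COMBO arrays were below these as well. That the COMBO arrays lay below the SAHA arrays was a condition of the gene's choice. The next falls were NEIL3, SREBF1, HMMR, TCTA, OLFML3, C11orf71, PARP16, TXNIP, NCAPH, ALDH5A1 and KLF7.

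NEIL3, a DNA glycosylase expressed in dividing cells, read 7.01, 6.76 and 6.95 with SAHA and 4.31, 4.00 and 5.46 with both drugs (-2.32 ± 0.30, adjusted p = 0.00161). TXNIP, the inhibitor of thioredoxin and of glucose uptake, fell from 12.87, 13.25 and 12.67 to 11.06, 11.52 and 11.05 (-1.72 ± 0.19, adjusted p = 0.000857), and both of its further probe sets fell by -1.80 and -1.92. TXNIP also fell with pargyline alone, from 9.80, 9.62 and 9.30 to 7.68, 7.95 and 7.86. KLF7, a KLF factor best known from neurons, fell by -1.51 ± 0.30 (adjusted p = 0.00874). The falls of PARP16 (-1.90 ± 0.45, adjusted p = 0.0184) and ALDH5A1 (-1.55 ± 0.42, adjusted p = 0.0327) were less firm. PARP16 read 8.55, 7.62 and 6.33 with SAHA, and its adjusted p was 0.0603 without SAHA replicate 2 and 0.0685 without COMBO replicate 2. For ALDH5A1 it was between 0.0683 and 0.114 without SAHA replicate 1, 2 or 3 or COMBO replicate 1 or 2.

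**Figure D1:**
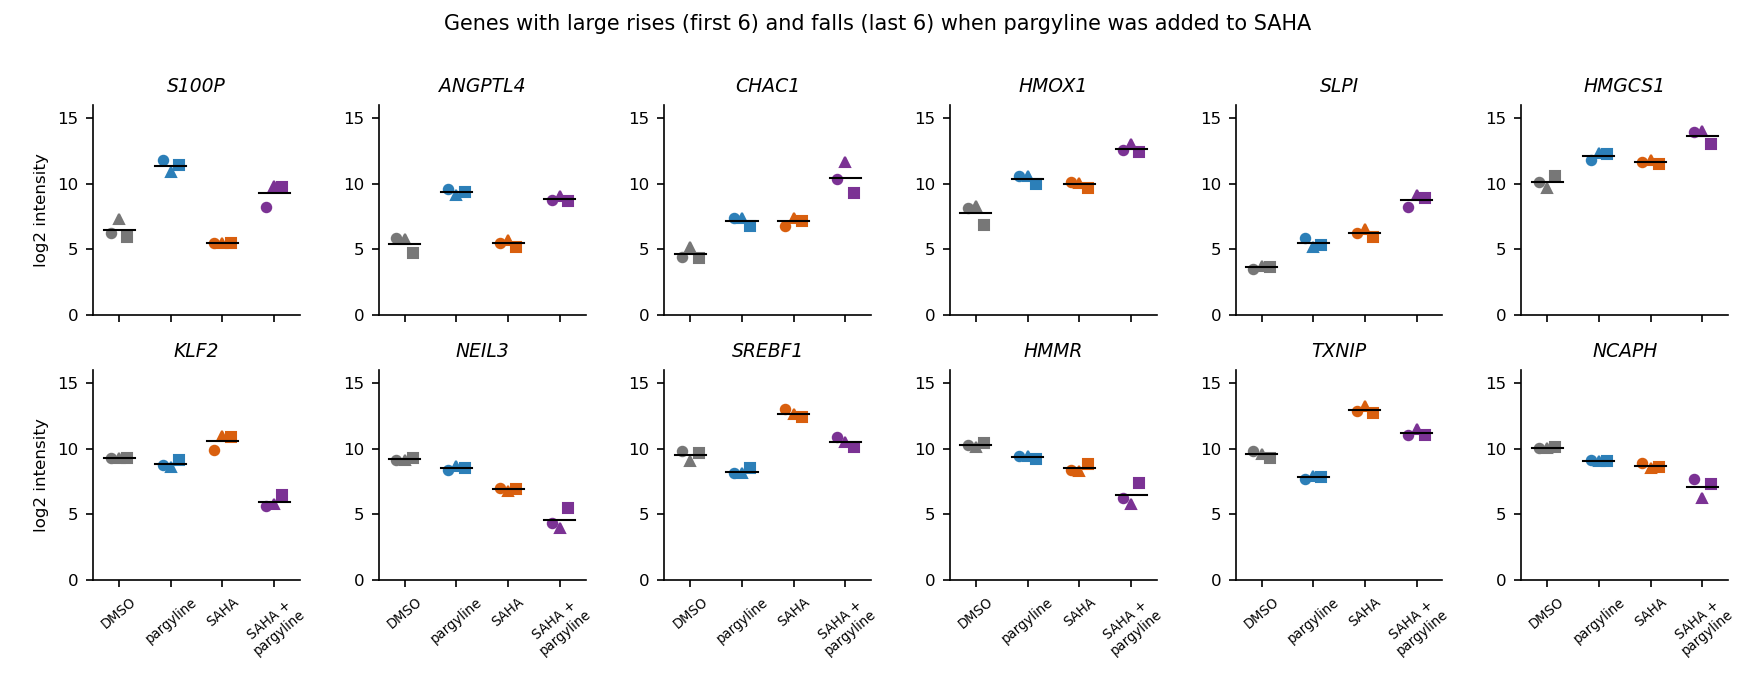
Log2 intensity of 6 genes that rose (top row) and 6 that fell (bottom row) when pargyline was added to SAHA, in all 12 arrays. Each point is an array (circle, triangle and square for replicates 1, 2 and 3) and each bar is the mean of the 3 arrays of a group; KLF2 read 5.64 to 6.48 with both drugs and 8.59 to 10.93 in every other array.

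Cells sense falling sterol with the SREBP transcription factors, which are released from the endoplasmic reticulum and switch on the enzymes of the mevalonate and sterol arms of cholesterol synthesis as well as those of fatty acid synthesis. Of 16 cholesterol synthesis genes measured, 12 rose and none fell when pargyline was added to SAHA, 75% against 7.88% of all genes, and their median change was 1.06 against -0.02. HMGCS1, the enzyme that makes HMG-CoA at the head of the mevalonate arm, read 11.63, 11.78 and 11.52 with SAHA and 13.95, 13.97 and 13.01 with both drugs, a rise of 2.00 ± 0.29 (adjusted p = 0.00222). COMBO replicate 3 was the lowest of its group. The second HMGCS1 probe set rose by 2.97.

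In the sterol arm, 8 of 9 genes rose. SQLE, the squalene epoxidase, read 10.41, 10.20 and 10.27 with SAHA and 12.09, 12.14 and 11.65 with both drugs (1.66 ± 0.16, adjusted p = 0.000687). MSMO1, a sterol demethylating oxidase, read 12.94, 12.88 and 13.17 and then 14.69, 14.86 and 14.38 (1.65 ± 0.19, adjusted p = 0.000971). NSDHL, which acts in the same demethylation, rose by 1.73 ± 0.25 (adjusted p = 0.00229). The sterol reductase TM7SF2 was the exception: it read 8.56, 8.55 and 8.40 with SAHA and 8.76, 9.18 and 8.94 with both drugs, and this 0.45 ± 0.25 did not pass (adjusted p = 0.278). Pargyline added to DMSO raised 15 of the 16 genes, with a median of 1.39. HMGCS1 rose by 2.02 without SAHA, SQLE by 1.70, MSMO1 by 1.80 and NSDHL by 1.46.

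The regulators of the pathway did not move in a single direction. SREBF1, which encodes SREBP1, read 13.01, 12.60 and 12.40 with SAHA and 10.89, 10.47 and 10.10 with both drugs, a fall of 4.54-fold (-2.18 ± 0.26, adjusted p = 0.00117). The DMSO arrays had read 9.80, 9.02 and 9.70, so SREBF1 was far higher with SAHA than with DMSO, and in the COMBO arrays it lay between. SREBF2, which encodes SREBP2, read 8.20, 8.36 and 8.38 with SAHA and 8.64, 8.81 and 8.85 with both drugs (0.45 ± 0.12, adjusted p = 0.0297). INSIG2, which retains the SREBP complex, rose by 0.45 ± 0.11 (adjusted p = 0.0193), and NPC1, which exports cholesterol from lysosomes, by 0.80 ± 0.11 (adjusted p = 0.00183). The SREBF2 call was lost without SAHA replicate 1 or 2 or COMBO replicate 2 or 3 (adjusted p 0.067 to 0.0982), and that of INSIG2 without SAHA replicate 1 or 2 or COMBO replicate 2 (0.0532 to 0.0623). Of the 10 genes of SREBP regulation and LDL uptake measured, 3 rose and 1 fell.

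The promoter of SREBF2 is shown because it was the only promoter of that list that held the core of the sterol regulatory element, CACCCCAC, to which SREBP binds. It is the 250 bases before the RefSeq start of the gene, on the plus strand at chr22:41832855-41833104 of GRCh38.p14, with the match in capitals.
SREBF2: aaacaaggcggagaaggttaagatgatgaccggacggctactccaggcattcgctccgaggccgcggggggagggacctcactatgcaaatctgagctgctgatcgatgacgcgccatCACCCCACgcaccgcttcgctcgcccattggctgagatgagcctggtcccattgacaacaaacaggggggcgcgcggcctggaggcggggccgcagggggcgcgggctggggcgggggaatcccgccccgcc
The core was searched on both strands in the 250 bases before each start. It was found in 1 of 10 promoters of SREBP regulation and LDL uptake, in 0 of 14 of cholesterol synthesis and in 0 of 13 of fatty acid synthesis, against 2.45% of the promoters of all 9563 genes tested that had a RefSeq promoter. The longer sterol regulatory element, searched in the same way, was in 0 of 14 cholesterol synthesis promoters and in 0.0418% of all. A match describes letters and not binding.

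LXR is a nuclear receptor that senses sterols. Of 6 LXR target genes measured, 3 fell and none rose, with a median of -0.43, and 2 of the 6 differences were positive. The 1 LXR receptor gene measured changed by -0.59 and did not pass. ABCG1, a sterol exporter, read 7.60, 7.53 and 7.90 with SAHA and 6.16, 6.03 and 6.42 with both drugs (-1.48 ± 0.15, adjusted p = 0.000784). MYLIP, a ubiquitin ligase that degrades the LDL receptor, read 8.99, 8.63 and 8.80 and then 8.01, 7.78 and 8.18 (-0.82 ± 0.15, adjusted p = 0.00661). Neither gene's groups overlapped, as for 37.6% of all genes and 1960 of the 1985 that passed. The exporter ABCA1 read 6.50, 6.27 and 7.04 with SAHA and 5.42, 5.48 and 5.48 with both drugs (-1.14 ± 0.29, adjusted p = 0.0274). That call was lost without SAHA replicate 1 or 3 or without any of the COMBO arrays (adjusted p 0.0562 to 0.0826).

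Of 14 fatty acid synthesis genes, 7 rose and none fell, with a median of 0.59. With pargyline alone 6 rose and 1 fell, with a median of 0.36. FASN, the fatty acid synthase, read 10.87, 10.27 and 11.20 with SAHA and 12.95, 13.24 and 12.43 with both drugs (2.09 ± 0.32, adjusted p = 0.00263). In the 9 arrays without the combination FASN lay between 10.27 and 11.26, and all 3 COMBO arrays lay above them. That the COMBO arrays lay above the SAHA arrays was a condition of the gene's choice. A further FASN probe set, at a mean of 2.02, was near the floor and changed by 0.16 (adjusted p = 0.0756). ELOVL6, which lengthens palmitate, read 8.40, 8.62 and 9.34 and then 10.06, 10.62 and 10.49 (1.60 ± 0.24, adjusted p = 0.00239). ME1, which supplies NADPH, rose by 0.83 ± 0.11 (adjusted p = 0.00182) and ACSL1, which activates fatty acids, by 0.86 ± 0.19 (adjusted p = 0.0128).

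Among 19 genes of fatty acid oxidation and other PPAR targets, 4 rose (21.1%) and 1 fell (5.26%). PLIN2, the coat protein of lipid droplets, read 9.49, 9.49 and 9.77 with SAHA and 11.18, 11.38 and 11.26 with both drugs (1.69 ± 0.13, adjusted p = 0.000397). Its groups did not overlap, as for 37.6% of all genes and 1960 of the 1985 that passed. CPT2, which works in mitochondrial fatty acid import, fell from 9.77, 9.35 and 9.55 to 8.77, 8.62 and 9.01 (-0.76 ± 0.12, adjusted p = 0.00334). CPT1A, the import enzyme on the outer membrane, differed by 0.35 ± 0.09 (adjusted p = 0.0284). CPT1A did not pass once replicate numbers were blocked (adjusted p = 0.0509), nor without any 1 of the 6 arrays (0.0606 to 0.0758).

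ATF4 is a transcription factor made when the kinases of the integrated stress response slow translation, on amino acid shortage or endoplasmic reticulum stress. It switches on amino acid synthesis, amino acid import, tRNA synthetases and, through CHOP (DDIT3) and CHAC1, genes linked to cell death. Of 43 ATF4 genes measured, 22 rose and 1 fell, with a median of 0.37. By role, 5 of 9 regulators, 3 of 5 stress effectors, 3 of 10 genes of amino acid synthesis, 4 of 8 transporters and 7 of 11 tRNA synthetases rose. Without SAHA, pargyline raised 23 of the 43 and lowered 1, with a median of 0.44.

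CHAC1, which degrades glutathione, read 6.79, 7.42 and 7.18 with SAHA and 10.35, 11.62 and 9.32 with both drugs (3.30 ± 0.50, adjusted p = 0.00264). DDIT3, which encodes CHOP, read 8.42, 8.55 and 8.49 with SAHA and 10.74, 11.49 and 9.99 with both drugs (2.26 ± 0.33, adjusted p = 0.0022). COMBO replicate 2 was the highest and replicate 3 the lowest for both genes. ASNS, the asparagine synthetase, read 12.83, 13.75 and 13.23 and then 14.74, 15.13 and 14.61 (1.55 ± 0.22, adjusted p = 0.00204). SLC7A11, the cystine importer, read 9.66, 9.91 and 10.84 and then 11.44, 12.15 and 11.87 (1.68 ± 0.29, adjusted p = 0.00445), and its further probe sets rose by 3.30 and 1.70. ATF4 itself rose by 1.09, and the tRNA synthetase AARS1 by 0.70.

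Both CHAC1 and AARS1 are shown because their promoters hold the ATF4 element TGATGCAA, in capitals in each and read there from the opposite strand as TTGCATCA. The first is at chr15:40953221-40953470, plus strand, and the other at chr16:70289507-70289756, minus strand, of GRCh38.p14, each 250 bases before the RefSeq start.
CHAC1: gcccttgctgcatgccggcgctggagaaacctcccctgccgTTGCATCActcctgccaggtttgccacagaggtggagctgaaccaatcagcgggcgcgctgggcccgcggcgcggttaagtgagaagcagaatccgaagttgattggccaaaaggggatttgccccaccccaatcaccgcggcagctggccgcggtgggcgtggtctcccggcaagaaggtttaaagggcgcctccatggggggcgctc
AARS1: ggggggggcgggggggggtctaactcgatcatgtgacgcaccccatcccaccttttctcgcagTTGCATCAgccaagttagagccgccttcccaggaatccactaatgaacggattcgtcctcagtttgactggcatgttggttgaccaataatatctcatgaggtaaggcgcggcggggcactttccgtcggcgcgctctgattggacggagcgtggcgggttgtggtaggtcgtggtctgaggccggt
Of 36 ATF4 list genes with a RefSeq promoter, 3 held the element (8.33%), CHAC1, AARS1 and IARS1, and all 3 had risen. Among all 9563 promoters the share was 0.596%. The list was chosen as targets of ATF4, so the share describes the list.

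Folding in the endoplasmic reticulum moved with them: of 25 genes, 13 rose and none fell, with a median of 0.25. With pargyline alone 10 rose and none fell, with a median of 0.18. HERPUD1, which takes part in the disposal of misfolded proteins, read 11.77, 11.63 and 11.55 with SAHA and 12.80, 13.25 and 12.27 with both drugs (1.12 ± 0.20, adjusted p = 0.00506). DNAJB9, a co-chaperone, rose from 10.12, 9.99 and 9.94 to 10.89, 11.10 and 10.81 (0.92 ± 0.11, adjusted p = 0.00112). DNAJC3, which restrains the stress kinase PERK, rose by 0.65 ± 0.14 (adjusted p = 0.0106) and EDEM1, a mannosidase-like protein of the disposal pathway, by 0.64 ± 0.07 (adjusted p = 0.00104). XBP1, a transcription factor of the unfolded protein response, read 6.92, 6.95 and 7.17 with SAHA and 7.43, 7.60 and 7.81 with both drugs (0.60 ± 0.10, adjusted p = 0.00409). With DMSO XBP1 had read 9.05, 9.22 and 9.13, above every SAHA and COMBO array.

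The hypoxia response and glycolysis list held 37 measured genes, of which 19 rose and none fell, with a median of 0.23; 2 fell after quantile normalization, and 2 after centring each array on its median. P4HA1, a collagen prolyl hydroxylase, read 11.17, 11.13 and 11.31 with SAHA and 12.61, 12.49 and 12.39 with both drugs (1.29 ± 0.10, adjusted p = 0.000471). P4HA2, its paralogue, read 10.58, 10.59 and 10.29 and then 11.73, 11.75 and 11.33 (1.12 ± 0.15, adjusted p = 0.00161). BNIP3, a mitophagy receptor, rose by 0.71 ± 0.10 (adjusted p = 0.00196). Without SAHA, pargyline raised P4HA1 by 1.29 and P4HA2 by 1.01, and 20 of the 37 list genes rose and none fell, with a median of 0.33. PDK1, a kinase that inhibits pyruvate dehydrogenase, read 7.08, 6.09 and 6.97 with SAHA and 7.59, 7.48 and 7.70 with both drugs (0.87 ± 0.25, adjusted p = 0.0386). The PDK1 call was lost without SAHA replicate 2 or any COMBO array (adjusted p 0.062 to 0.0935), and after quantile normalization (0.0531). The list's count fell to 11 without SAHA replicate 2 and to 11 without COMBO replicate 2.

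The promoter of P4HA1 is shown for the hypoxia element ACGTG, which HIF binds, in capitals and read from the opposite strand as CACGT. It lies at chr10:73096867-73097116 of GRCh38.p14 on the minus strand.
P4HA1: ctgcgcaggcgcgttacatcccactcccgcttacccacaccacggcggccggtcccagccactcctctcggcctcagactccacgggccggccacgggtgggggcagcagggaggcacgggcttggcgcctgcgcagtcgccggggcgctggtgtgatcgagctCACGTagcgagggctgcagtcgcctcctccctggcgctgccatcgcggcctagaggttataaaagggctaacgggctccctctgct
The element was in 11 of 31 promoters of this list (35.5%) and in 21.7% of all promoters. Of the 16 list genes with a promoter that had risen, 8 held it.

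In the NRF2 antioxidant list 7 of 32 genes rose (21.9%) and 1 fell (3.1%), with a median of 0.15. PGD, an NADPH-producing dehydrogenase, rose from 11.98, 11.87 and 11.81 to 12.95, 13.06 and 12.45 (0.93 ± 0.13, adjusted p = 0.0022). AKR1C2, an aldo-keto reductase, read 9.66, 9.86 and 9.71 with SAHA and 10.03, 10.64 and 10.84 with both drugs (0.76 ± 0.20, adjusted p = 0.0323). Its probes can share targets with other AKR1C genes, and the mean of its probe sets gave an adjusted p of 0.104. The AKR1C2 call was lost without any SAHA array, or without COMBO replicate 2 or 3 (adjusted p 0.0622 to 0.113). With pargyline alone 15 of the 32 NRF2 list genes rose and 1 fell, with a median of 0.25. The antioxidant element TGACNNNGC was in 6 of 26 promoters of the list (23.1%), against 11.9% of all. Of 18 xenobiotic response genes, 4 rose (22.2%) and 1 fell (5.56%) when pargyline was added to SAHA. CYP1B1, a cytochrome of hormone and carcinogen metabolism, read 9.87, 9.79 and 9.94 and then 10.69, 10.87 and 11.31 (1.09 ± 0.18, adjusted p = 0.00332).

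Of 10 metallothionein and zinc response genes 1 rose, the zinc exporter SLC30A1 (0.41 ± 0.06, adjusted p = 0.00311). The zinc element TGCNCNC was in 4 of 5 promoters of that list and in 55.3% of all. Of 22 heat shock genes 3 rose: the chaperones DNAJA1 (0.36 ± 0.05, adjusted p = 0.00167), HSPH1 (0.44 ± 0.09, adjusted p = 0.0106) and HSPB8. HSPB8 differed by 0.88 ± 0.25 (adjusted p = 0.0398). Blocking on replicate number gave it an adjusted p of 0.0588, and it was between 0.057 and 0.124 without SAHA replicate 1 or 2 or any of the COMBO arrays.

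Lysosomal genes rose more often than they fell, 18 against 3 of 53 lysosome and autophagy genes, with a median of 0.21. SQSTM1, the autophagy receptor p62, read 13.35, 13.49 and 13.26 with SAHA and 14.30, 14.27 and 14.01 with both drugs (0.82 ± 0.10, adjusted p = 0.00128). MAP1LC3B, the LC3 protein of autophagosomes, rose from 13.125, 12.997 and 12.941 to 13.91, 13.97 and 13.48 (0.77 ± 0.12, adjusted p = 0.00261). The protease CTSL rose by 0.73 ± 0.10 (adjusted p = 0.00183) and the lysosomal membrane protein CLN3 by 0.69 ± 0.12 (adjusted p = 0.00558). By role, 10 of 20 lysosomal enzymes, 4 of 11 membrane proteins and 3 of 19 autophagy genes rose. With pargyline alone 18 of the 53 rose and 1 fell, with a median of 0.22.

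Mitotic genes fell together. Cells express the mitotic kinases, cyclins, kinesins and kinetochore proteins mostly from late S phase to division, so their level in a culture follows the share of dividing cells, and in bulk RNA fewer such cells and less RNA per cell cannot be told apart. Of 54 mitosis genes measured, 44 fell (81.5%, against 8.71% of all genes) and none rose (1 after quantile normalization), with a median of -0.83. Fitted to the 6 arrays alone, 21 fell. All 14 kinases and cyclins fell, all 12 kinesins fell, and 18 of 28 genes of the kinetochore, spindle and mitotic exit fell. With pargyline alone 26 of the 54 fell, with a median of -0.52.

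CCNA2, the cyclin A of S phase and mitosis, read 10.61, 10.49 and 10.47 with SAHA and 9.40, 8.68 and 9.28 with both drugs (-1.41 ± 0.17, adjusted p = 0.00123), and its further probe set fell by -1.61. HMMR, a spindle-associated hyaluronan receptor, read 8.40, 8.30 and 8.83 and then 6.28, 5.78 and 7.38 (-2.03 ± 0.34, adjusted p = 0.00376). NDC80, of the kinetochore's microtubule hook, fell from 9.76, 9.63 and 9.71 to 8.64, 7.58 and 8.48 (-1.46 ± 0.23, adjusted p = 0.00321). In all 3 genes COMBO replicate 2 was the lowest array. CDCA3, a trigger of mitotic entry, fell by -1.46 ± 0.21 (adjusted p = 0.00198) and the condensin subunit NCAPH by -1.59 ± 0.29 (adjusted p = 0.00598). The same genes were lower with SAHA than with DMSO: CCNA2 had read 11.61, 11.40 and 11.72 with DMSO and HMMR 10.24, 10.14 and 10.44.

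Of 50 DNA replication genes 29 fell (13 in the fit of the 6 arrays alone) and none rose, with a median of -0.43. POLA2, a subunit of the primase complex, read 8.02, 7.84 and 7.61 with SAHA and 6.56, 5.95 and 6.79 with both drugs (-1.39 ± 0.20, adjusted p = 0.00204). PRIM1, the primase itself, fell from 11.97, 11.86 and 11.80 to 10.82, 10.57 and 11.12 (-1.04 ± 0.12, adjusted p = 0.00105). LIG1, which joins Okazaki fragments, fell by -1.32 ± 0.28 (adjusted p = 0.0107), and MCM10, an origin firing factor, by -0.97 ± 0.21 (adjusted p = 0.0125). By role, 9 of 15 origin licensing genes, 15 of 25 fork genes and 5 of 10 genes of nucleotide supply and regulation fell. With pargyline alone 9 of the 50 fell and 1 rose, with a median of -0.27.

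Of 28 DNA repair genes 15 fell (5 in the fit of the 6 arrays alone) and none rose, with a median of -0.45. Among them, 9 of the 13 genes of homologous recombination fell. With pargyline alone 6 of the 28 fell and none rose, with a median of -0.18. BRCA1, which directs homologous recombination, read 8.911, 8.965 and 9.005 with SAHA and 8.04, 7.67 and 8.36 with both drugs (-0.93 ± 0.15, adjusted p = 0.00312). TIMELESS, a replication fork protein, fell from 8.93, 9.13 and 8.86 to 7.784, 8.003 and 8.209 (-0.97 ± 0.10, adjusted p = 0.000784). BRIP1, a helicase partner of BRCA1, differed by -0.90 ± 0.26 (adjusted p = 0.0468), and EXO1, an end resection nuclease, by -0.97 ± 0.22 (adjusted p = 0.015). In the blocked fit BRIP1 did not pass (adjusted p = 0.0514), nor did it without any SAHA array or COMBO replicate 2 or 3 (0.0604 to 0.114). EXO1 did not pass without SAHA replicate 1 or 2 (0.0548 and 0.0523). Without SAHA replicate 1 the list's count was 9. The leukocyte, endothelial and fibroblast markers given above held no gene that passed.

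Of 19 growth arrest genes 2 rose (10.5%) and 1 fell (5.26%), against 7.88% and 8.71% of all genes. CDKN1A, the inhibitor p21 and a textbook target of deacetylase inhibitors, read 7.13, 7.10 and 6.96 with DMSO, 11.16, 10.92 and 10.58 with SAHA and 12.28, 12.29 and 11.32 with both drugs. Its rise from SAHA to both drugs was 1.08 ± 0.25 (adjusted p = 0.0166), and the call was lost without SAHA replicate 3 (adjusted p = 0.052), COMBO replicate 1 (0.0564) or COMBO replicate 2 (0.0661). BTG1, an antiproliferative gene, rose by 0.46 ± 0.09 (adjusted p = 0.00961). Of 12 p53 targets, measured in a line whose p53 is mutant, 1 rose (8.33%) and 3 fell (25%). Of 35 apoptosis regulators 4 rose (11.4%) and 2 fell (5.71%). BAX, the pore-forming death protein, fell from 9.35, 9.03 and 9.02 to 8.33, 8.33 and 8.74 (-0.66 ± 0.14, adjusted p = 0.0116), and PLK2 fell by -0.76 ± 0.16 (adjusted p = 0.0111).

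Immediate early genes, which growth factor and stress signals switch on within minutes, split. Of 36 such genes 8 rose (22.2%) and 4 fell (11.1%), KLF2 among the latter. FOS read 6.70, 7.57 and 6.67 with SAHA and 8.44, 8.90 and 8.01 with both drugs (1.47 ± 0.26, adjusted p = 0.0052), and lay between 2.51 and 2.74 in the DMSO and pargyline arrays, near the floor. NR4A1, an orphan nuclear receptor, read 8.05, 6.55 and 6.19 with SAHA and 10.22, 9.92 and 8.38 with both drugs (2.58 ± 0.56, adjusted p = 0.0127). SAHA replicate 1 of NR4A1 lay close to COMBO replicate 3, and without COMBO replicate 2 the adjusted p was 0.0525. Its further probe sets, at means of 1.97 and 3.42, changed by 0.02 and 1.19 and did not pass.

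Among interferon-stimulated genes 5 of 44 rose (11.4%, against 7.88% of all genes) and none fell. IFI35, an interferon-induced leucine zipper protein, read 3.31, 3.29 and 3.19 with SAHA and 5.41, 5.81 and 5.49 with both drugs (2.31 ± 0.14, adjusted p = 0.000187). The SAHA values lay near the floor of the arrays, so the size of this rise is uncertain. With DMSO it read 7.93, 7.79 and 7.62, so it remained lower with both drugs than with DMSO. IFI44 read 4.88, 4.91 and 6.60 and then 7.05, 7.02 and 7.59 (1.75 ± 0.40, adjusted p = 0.0159), against 9.54 to 9.79 with DMSO. IFI44 did not pass without SAHA replicate 1 (adjusted p = 0.0552) or 2 (0.0589), and its second probe set was near the floor. Antigen presentation had 4 of 26 genes higher (15.4%) and none lower. Inflammatory cytokines had 2 of 29 higher (6.9%) and 1 lower (3.45%), below the shares of all genes.

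The S100 family gave 1 rise (6.25%), S100P, and 4 falls (25%) among 16 genes (2 falls after quantile normalization). S100A4, a metastasis-associated calcium-binding protein, read 9.43, 9.54 and 9.72 with SAHA and 8.31, 8.63 and 8.66 with both drugs (-1.04 ± 0.11, adjusted p = 0.000808). S100A2 fell from 6.87, 7.42 and 7.39 to 6.13, 6.51 and 6.45 (-0.86 ± 0.18, adjusted p = 0.00971). Both rose with pargyline alone, S100A4 by 0.75 and S100A2 by 0.82. IGFBP3, which binds insulin-like growth factors, fell from 11.82, 11.81 and 11.96 to 10.41, 10.71 and 11.06 (-1.14 ± 0.15, adjusted p = 0.00164).

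Genes of the mesenchymal state and matrix gave 8 rises (17.4%) and 2 falls (4.35%) among 46, against 7.88% and 8.71% of all genes. LOX, the collagen cross-linking oxidase, read 8.21, 8.02 and 8.68 with SAHA and 9.53, 9.45 and 9.88 with both drugs (1.32 ± 0.20, adjusted p = 0.00241). COL13A1, a membrane collagen, rose by 0.82 ± 0.14 (adjusted p = 0.00494) and the urokinase receptor PLAUR by 0.99 ± 0.21 (adjusted p = 0.0111). Of 34 epithelial genes none rose and 1 fell. The circadian repressor BHLHE40 rose from 10.27, 10.10 and 11.25 to 11.85, 12.44 and 12.07 (1.58 ± 0.29, adjusted p = 0.00598), 1 of 2 rises among 14 clock genes, of which 1 fell. Of 28 growth factor receptors and ligands 3 rose (10.7%) and 2 fell (7.14%). The insulin receptor INSR read 8.93, 8.65 and 8.67 with SAHA and 9.42, 9.36 and 9.70 with both drugs (0.74 ± 0.14, adjusted p = 0.00614). The EGF receptor ligand HBEGF rose by 0.40 ± 0.07 (adjusted p = 0.00457). Neither gene's groups overlapped, as for 37.6% of all genes and 1960 of the 1985 that passed. Of 26 TGF-beta family genes 3 rose (11.5%) and none fell. BAMBI, a decoy receptor of the pathway, was among the rises (0.63 ± 0.14, adjusted p = 0.0144). Of 24 Notch and Wnt genes 1 rose (4.17%) and 2 fell (8.33%), and of 22 hormone receptor and luminal genes 3 rose (13.6%) and 1 fell (4.55%). Ribosome biogenesis had 4 rises and 6 falls among 29 genes, and oxidative phosphorylation 1 rise and 7 falls among 44.

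Some genes that read higher with SAHA than with DMSO rose further when pargyline was added. TEX14, a germ cell gene, lay between 2.14 and 2.28 in the DMSO and pargyline arrays, and read 7.21, 7.56 and 6.56 with SAHA and 8.91, 8.96 and 8.57 with both drugs (1.71 ± 0.21, adjusted p = 0.00125). ABAT, which degrades GABA, read 10.003, 10.367 and 9.908 with SAHA and 11.05, 11.09 and 10.61 with both drugs (0.82 ± 0.15, adjusted p = 0.00502). The histone gene H4C8 rose from 6.84, 7.25 and 6.90 to 8.55, 8.50 and 8.36 (1.47 ± 0.16, adjusted p = 0.000787), while H2BC12 fell by -0.91 ± 0.13 (adjusted p = 0.00183). Histone genes are near-identical copies, and their probes may not tell them apart. Germline genes gave 1 rise (5%) and 2 falls (10%) of 20, and neuronal genes 5 rises (11.4%) and 1 fall (2.27%) of 44. Histones gave 1 rise (6.67%) and 2 falls (13.3%) of 15. Of all genes 7.88% rose and 8.71% fell.

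Of the drugs' own targets and their corepressor partners none of 36 rose and 6 fell (16.7%, against 8.71% of all genes). KDM1A read 10.85, 10.56 and 10.56 with SAHA and 10.18, 10.26 and 10.28 with both drugs (-0.41 ± 0.09, adjusted p = 0.0142), and changed by -0.44 ± 0.09 with pargyline alone (adjusted p = 0.0103). HMG20B, a member of the same complex, fell by -0.30 ± 0.06 (adjusted p = 0.0118). HDAC1 differed by -0.17, HDAC2 by -0.27 and HDAC3 by -0.33 (adjusted p 0.0245, 0.0287 and 0.0371). Those 3 calls were lost without SAHA replicate 1 or 3 or COMBO replicate 2 for HDAC1 (0.0523 to 0.098), without SAHA replicate 3 or COMBO replicate 1 or 2 for HDAC2 (0.0529 to 0.0919), and without SAHA replicate 1 or 2 or any COMBO array for HDAC3 (0.0563 to 0.128). HDAC1 also did not pass with a trended and robust prior (0.0517) or without dim genes (0.0589), and in the fit of the 6 arrays alone HDAC2 (0.0984), HDAC3 (0.114) and KDM1A (0.0532) did not pass. MAOA, the monoamine oxidase A gene, read 8.70, 8.45 and 8.47 with SAHA and 8.78, 8.95 and 8.78 with both drugs, which did not pass (0.29 ± 0.11, adjusted p = 0.114). MAOB lay between 2.36 and 2.73, near the floor.

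The same addition of pargyline to cells without SAHA was measured on the other 6 arrays, so its calls can be set beside these. Pargyline against DMSO raised 1014 genes (8.48%) and lowered 891 (7.45%). That split depended on the scaling: after each array was centred on its own median, 941 rose and 5991 fell, and the median gene's change moved from -0.02 to -0.13. Of the 943 genes that rose when pargyline was added to SAHA, 386 also rose with pargyline alone (40.9% of the 943 and 38.1% of the 1014). Of the 1042 that fell, 414 also fell with pargyline alone (39.7% of the 1042 and 46.5% of the 891). Only 30 of the 830 genes called in both went in opposite directions. Across all 11963 genes, which are not independent replicates, the changes of the 2 comparisons had a Pearson correlation of 0.50. Without COMBO replicate 2 the shared rises were 256, and the shared falls were 248, 235 and 258 without DMSO replicate 1, DMSO replicate 2 or pargyline replicate 3. Pargyline alone then lowered 501, 479 and 549 genes.

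**Figure D2:**
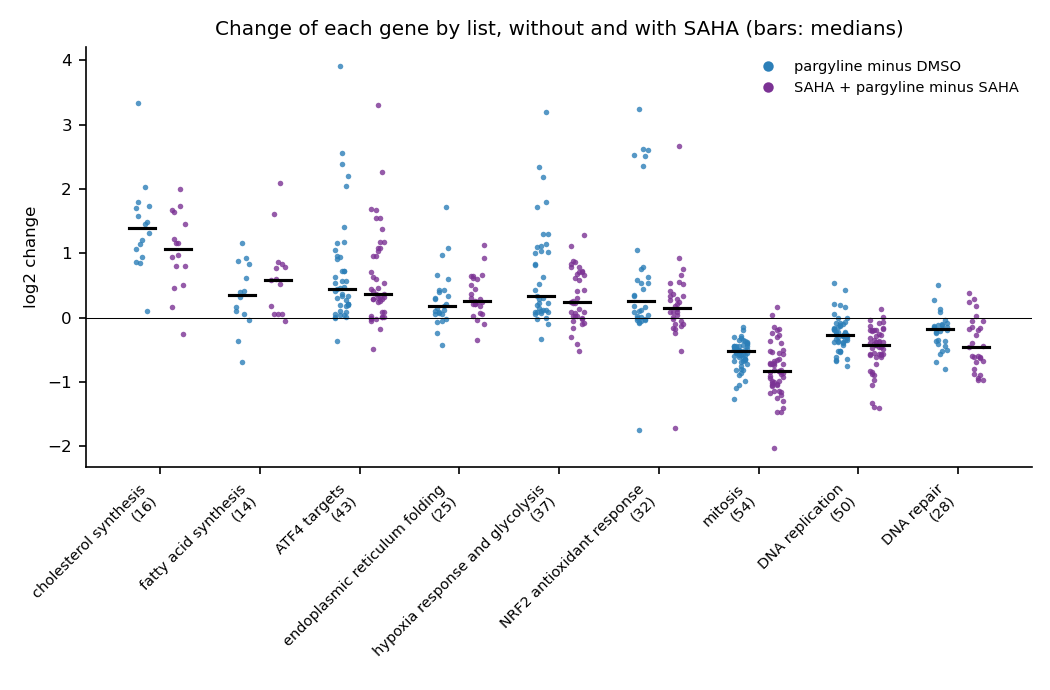
Log2 change of each measured gene of 9 lists with pargyline alone (blue, pargyline minus DMSO) and with pargyline added to SAHA (purple, SAHA plus pargyline minus SAHA). Each point is a gene, bars are medians, and the number measured is in brackets; the cholesterol synthesis medians are 1.39 and 1.06 and those of mitosis -0.52 and -0.83.

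Whether a change differed between cells with and without SAHA was tested directly, as the change with SAHA minus the change without. This difference passed for 445 genes (3.72%): 153 were positive (1.28%) and 292 negative (2.44%). When replicate number was blocked, 275 were positive and 395 negative, and after each array was centred on its own median 320 were positive and 242 negative. In 216 of the 445 genes pargyline passed only in cells without SAHA, 168 of them higher and 48 lower. In 157 it passed only in cells with SAHA, 85 higher and 72 lower. In 30 it passed in both with opposite directions, in 11 in both with the same direction and a larger change with SAHA, in 27 with a smaller change with SAHA, and in 4 in neither. The counts moved by over 1.5 times when some arrays were left out: 87 positive and 164 negative without DMSO replicate 1, 78 and 167 without DMSO replicate 2, 90 and 171 without SAHA replicate 2, and 86 and 160 without COMBO replicate 2. The negative count was 193 without SAHA replicate 1 and 192 without COMBO replicate 1, and the positive count was 99 without pargyline replicate 3 and 236 without COMBO replicate 3.

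**Figure D3:**
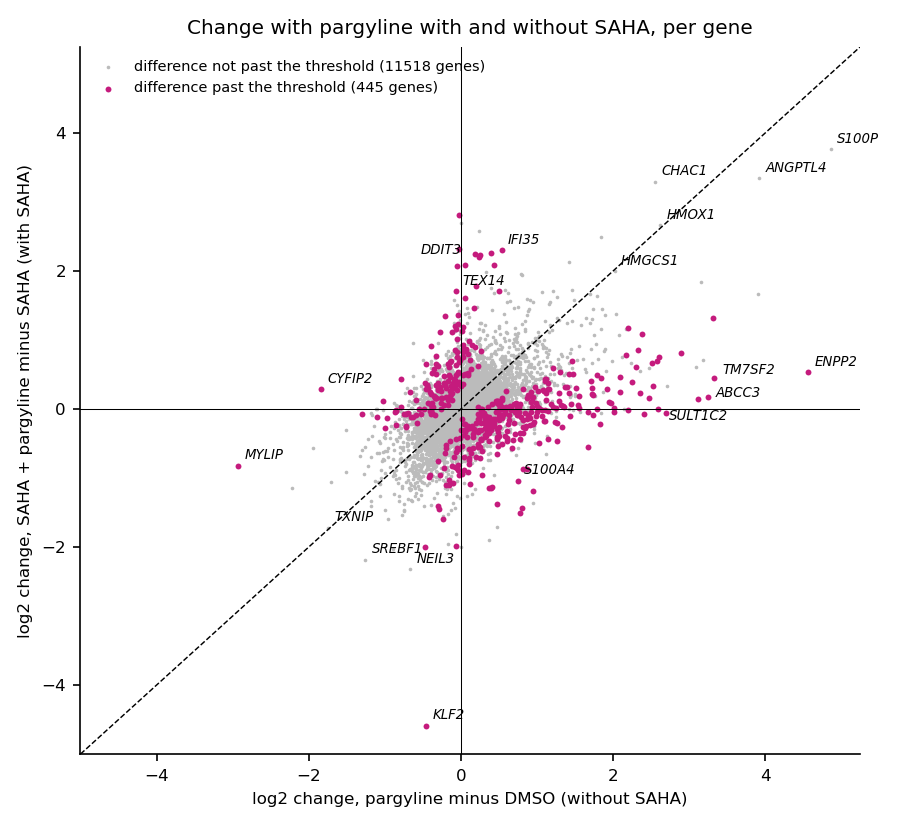
Log2 change of each of 11963 genes with pargyline in cells without SAHA (horizontal axis) and in cells with SAHA (vertical axis). The dashed line marks equal change, and 445 genes whose difference passed at an adjusted p under 0.05 are in pink, among them KLF2 far below the line and ENPP2 far to its right.

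After KLF2, the next negative differences in size were of ENPP2, ABCC3, SULT1C2 and TM7SF2, which pargyline raised in cells without SAHA and, by the probe sets used, did not change past the threshold in cells with it. ENPP2, which encodes autotaxin, the enzyme that makes lysophosphatidic acid, read 4.41, 3.93 and 3.10 with DMSO, 8.29, 8.24 and 8.63 with pargyline, 10.28, 10.41 and 10.41 with SAHA and 10.77, 10.98 and 10.96 with both drugs. Pargyline thus raised it by 4.57 without SAHA, and it differed by 0.54 ± 0.27 with SAHA, which did not pass (adjusted p = 0.23). DMSO replicate 3 of ENPP2, at 3.10, lay near the floor, so the size of the rise without SAHA is uncertain. Its further probe set rose by 0.73 with SAHA and passed (adjusted p = 0.0171), and by 3.07 without. The difference of the changes was -4.03 ± 0.38 (adjusted p = 0.00131), and in the further probe set it was -2.34 (adjusted p = 0.0022). TM7SF2, described above, had the same shape: 4.53, 3.39 and 3.76 with DMSO, 7.16, 7.05 and 7.47 with pargyline, and a difference of -2.88 ± 0.35 (adjusted p = 0.0048). With such low DMSO values the sizes of both genes' differences are uncertain.

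SULT1C2, a sulfotransferase, and ABCC3, an exporter of conjugates, took another shape, with low levels in both groups that had SAHA. SULT1C2 read 3.92, 4.03 and 4.21 with DMSO, 7.24, 7.05 and 7.23 with pargyline, 3.57, 3.56 and 3.56 with SAHA and 3.75, 3.62 and 3.73 with both drugs (difference -2.98 ± 0.11, adjusted p = 3.46e-06). ABCC3 read 4.19, 5.67 and 4.62 with DMSO, 7.94, 8.07 and 8.21 with pargyline, 2.34, 1.99 and 2.36 with SAHA and 1.93, 2.36 and 2.92 with both drugs (difference -3.07 ± 0.51, adjusted p = 0.0146). Both groups with SAHA were at the floor, where a fall could not have been measured, and the difference in the further ABCC3 probe set, -2.08, did not pass (adjusted p = 0.114). With SAHA present, neither gene changed past the threshold when pargyline was added. BHLHE41, the paralogue of BHLHE40, rose from 5.60, 4.96 and 6.37 to 7.65, 8.05 and 8.47 without SAHA and read 9.07, 9.30 and 9.69 and then 9.11, 9.28 and 9.43 with it. Its difference was -2.49 ± 0.48 (adjusted p = 0.0245), and it did not pass without DMSO replicate 1, SAHA replicate 2, pargyline replicate 3, COMBO replicate 1 or COMBO replicate 2 (0.0557 to 0.0599).

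For KLF2, which fell with SAHA present, the difference was -4.13 ± 0.43 (adjusted p = 0.00206), since its change with pargyline alone was -0.46 (adjusted p = 0.408). For S100A4 the directions were opposite, -1.04 with SAHA and 0.75 without, and both passed (difference -1.79, adjusted p = 0.000857). S100A2 did the same, -0.86 and 0.82 (difference -1.69, adjusted p = 0.0095). MYLIP fell in both, by -2.92 without SAHA, from 7.88, 7.40 and 7.90 to 4.78, 4.73 and 4.90, and by -0.82 with it, a difference of 2.11 ± 0.22 (adjusted p = 0.00201).

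The positive differences included IFI35, TEX14, H4C8, DDIT3 and FASN. IFI35, near the floor with SAHA, rose by 2.31 with SAHA and by 0.54 without (difference 1.77 ± 0.20, adjusted p = 0.00283). The rise without SAHA did not pass without DMSO replicate 2 or 3 or pargyline replicate 1 or 3 (adjusted p 0.0642 to 0.084), nor in the fit of the pargyline and DMSO arrays alone (0.0608). TEX14 changed by 1.71 and -0.06 (1.77 ± 0.30, adjusted p = 0.0153), but it was near the floor in both groups without SAHA, where a fall could not have been measured. H4C8 changed by 1.47 and 0.17 (1.30 ± 0.22, adjusted p = 0.0158). DDIT3 read 8.48, 8.39 and 7.78 with DMSO and 8.53, 8.50 and 8.16 with pargyline, a change of 0.18, against 2.26 with SAHA, a difference of 2.07 ± 0.46 (adjusted p = 0.0426). For FASN the changes were 0.05 and 2.09 (2.04 ± 0.45, adjusted p = 0.0405).

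The DDIT3 and FASN differences were near the threshold. That of DDIT3 passed without DMSO replicate 3 or COMBO replicate 3, and its adjusted p was 0.05 to 0.106 without any of the other 10 arrays. That of FASN passed without SAHA replicate 3, pargyline replicate 3 or COMBO replicate 3, and was 0.0656 to 0.0952 without any of the other 9 arrays and 0.0516 after quantile normalization. Of the 43 ATF4 genes 6 passed this test, DDIT3 in the positive direction and 5 in the negative. The latter were ATF3 (-1.30), DDIT4 (-1.02), SHMT2 (-0.52), CTH (-1.08) and SLC1A4 (-0.86), with adjusted p of 0.0377, 0.0286, 0.00213, 0.012 and 0.0367, named after their values were seen. CHAC1 and ASNS did not pass: CHAC1 rose by 2.56 without SAHA and by 3.30 with it (difference adjusted p = 0.718), and ASNS by 0.95 and 1.55 (0.385). The ASNS rise without SAHA did not pass without DMSO replicate 1 or 3 or pargyline replicate 1 or 3 (adjusted p 0.0529 to 0.0612). For mitosis, 1 of 54 genes passed the test of the difference, in the positive direction, and none in the negative, although 26 fell without SAHA and 44 with it. The difference between those counts was not itself tested, here or for any other list.

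**Figure D4:**
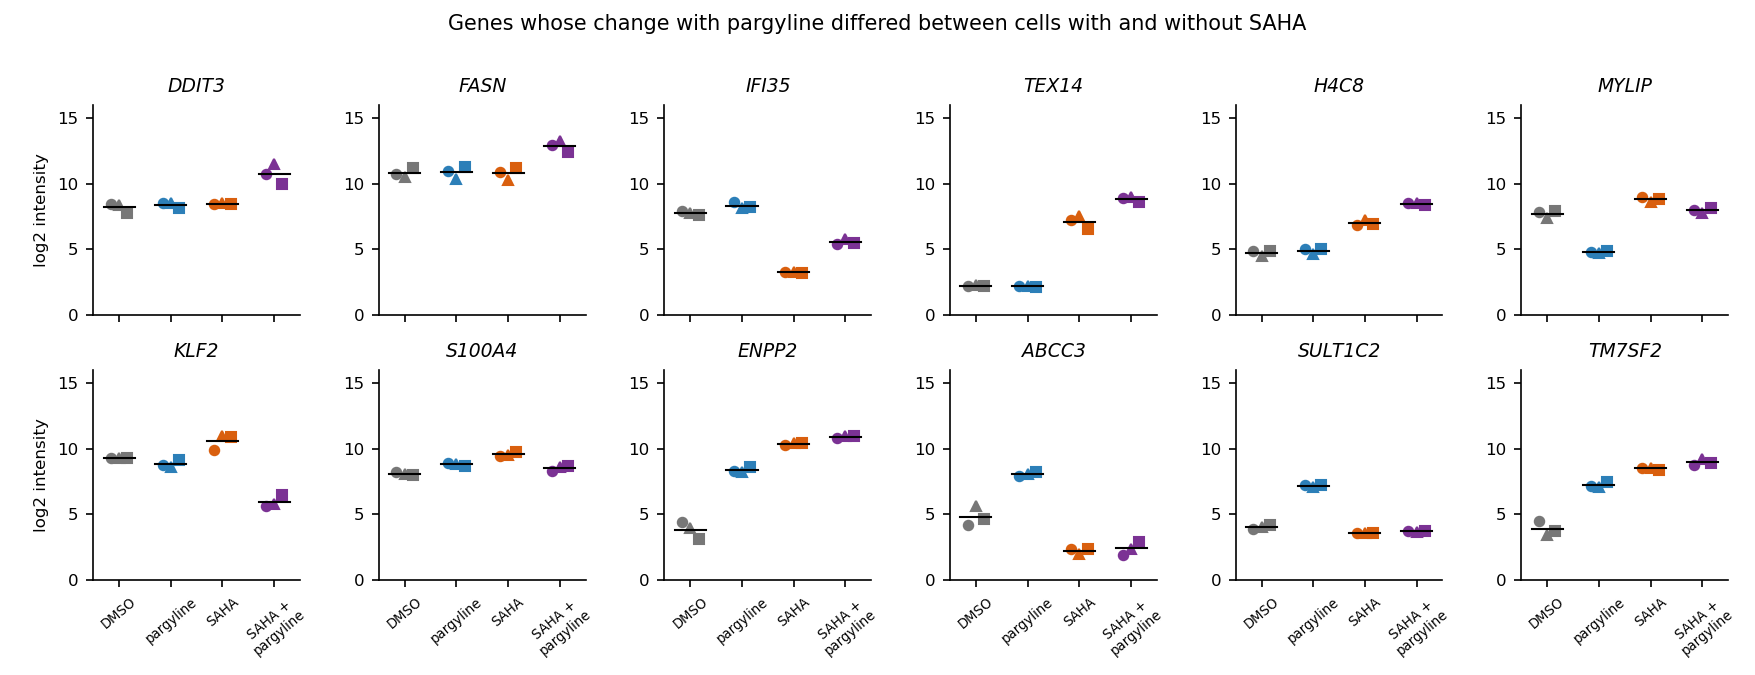
Log2 intensity in all 12 arrays of 12 genes for which the change with pargyline differed between cells with and without SAHA at an adjusted p under 0.05. Points are arrays (circle, triangle and square for replicates 1, 2 and 3) and bars are group means; SULT1C2 and ABCC3 are high with pargyline alone, whereas TEX14 and H4C8 are highest with both drugs.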

How the data were processed

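RNA of 12 cultures was measured on Affymetrix expression arrays of 22277 probe sets. The deposited values are log2 intensities made by the authors with RMA, per the submitters' processing notes; the software version, and whether all 12 arrays were normalized together, are not given in the sources used here. RMA forces arrays towards a common distribution, so a shift shared by most genes would not show. The values were used as deposited.

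Probe sets were named from the platform annotation, and outdated symbols were replaced through their gene identifiers in RefSeq (GRCh38.p14): 19064 probe sets had 1 gene, 1043 several and 2108 none, and 62 were controls. Each of 11963 genes was represented by its brightest probe set (mean of the 12 arrays), chosen among several for 4310 genes. P-values of further probe sets were adjusted over all probe sets. Of the 115 further probe sets of called genes named by the rule, 96 changed in the same direction and 51 passed, none in the opposite direction. Of the probe sets with several genes 88 rose and 89 fell.

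Group means were fitted to all 12 arrays with limma 3.58.1 in R 4.3.3 (lmFit and eBayes, 8 residual degrees of freedom), and errors of changes are standard errors of that fit. The design has no block. As a check, deviations from the group means of equally numbered COMBO and SAHA arrays correlated with r of 0.40, 0.26 and 0.53. For pargyline and DMSO arrays r was 0.27, 0.12 and 0.25. Unequal numbers gave r of -0.52 to 0.25 for the former and -0.26 to 0.06 for the latter. The numbers come from the labels, which do not say whether equal numbers share a culture date, so a pairing was not settled. Calls are those of the fit without a block unless said. A fit with the block is given for some results, and its counts at the end. Procedures were tested on simulated data. With 3 arrays a group, their number limits the precision.

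The 41 gene lists (1202 entries, 1063 measured) and the comparison were chosen with earlier results of these data known. Named genes were the 12 largest rises and 12 largest falls that passed without overlap above a level of 7.06, the 6 largest differences each way, up to 4 passing members of each list above that level, and the drugs' targets; AARS1, IARS1, ATF4, the further ATF4 targets of the test of the difference and the cell type markers were named apart from this rule, after their values were seen. Promoters are RefSeq sequences, held for 9563 of the genes. Alternatives tried were leaving out each array, a fit of only the groups compared, the replicate block, weighted arrays, a robust and trended prior, arrays scaled by quantiles or centred on their medians, averaged probe sets, no dim genes, a 2-fold minimum and a threshold of 0.01.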

Additional observations from a re-analysis of the deposited data

Results flagged for a closer look

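For 21 of the named genes the change with pargyline differed between cells with and without SAHA by limma's test of the difference itself (adjusted p under 0.05). The values are the log2 change with SAHA minus the log2 change without. Negative differences were found for ENPP2 (-4.03), KLF2 (-4.13), ABCC3 (-3.07), SULT1C2 (-2.98), TM7SF2 (-2.88), BHLHE41 (-2.49), KLF7 (-2.29), AKR1C2 (-1.85), S100A4 (-1.79), S100A2 (-1.69), IGFBP3 (-1.54), TCTA (-1.53) and ALDOC (-1.47). TCTA fell by -1.99 with SAHA and differed by -0.47 without, and ALDOC, a glycolytic aldolase, rose by 0.86 with SAHA and by 2.34 without. The ALDOC rise with SAHA did not pass without SAHA replicate 2 or 3 or COMBO replicate 1 or 2 (adjusted p 0.0565 to 0.0726).

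Positive differences were found for CYFIP2 (2.14), MYLIP (2.11), DDIT3 (2.07), FASN (2.04), TEX14 (1.77), IFI35 (1.77), H4C8 (1.30) and the ribosome assembly gene RRP12 (0.64). CYFIP2, an actin regulator, read 5.06, 5.35 and 5.38 with DMSO and 3.00, 3.08 and 4.20 with pargyline, and between 9.78 and 10.17 in all arrays with SAHA, with or without pargyline. Its further probe set differed by 0.85 (adjusted p = 0.0285) in another way, with a rise of 0.79 with SAHA (adjusted p = 0.00251) and a change of -0.06 without.

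Besides DDIT3, FASN and BHLHE41, 3 of these differences did not pass when some arrays were left out. For ALDOC the adjusted p was 0.0547 to 0.0705 without DMSO replicate 1 or 2, pargyline replicate 1 or 3, SAHA replicate 1 or 2, or COMBO replicate 1 or 2. For KLF7 it was 0.0547 to 0.0581 without DMSO replicate 1 or 2 or SAHA replicate 2. For RRP12 it was 0.0514 to 0.0838 without any array other than DMSO replicate 3 or COMBO replicate 1, and 0.0979 with the mean of its probe sets.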

How the results depend on the processing

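For the named genes, no passing change (pargyline added to SAHA, pargyline against DMSO, or their difference) reversed its direction under the alternatives run gene by gene. Scaling by quantiles, averaging probe sets, a trended and robust prior, and leaving out dim genes each kept the 16 main counts (genes higher or lower in each comparison, shared rises and shared falls, and calls in the 8 leading lists) within 1.5 times. Centring arrays on their medians gave 5991 genes lower with pargyline against DMSO (891 without it), 320 positive differences (153) and 894 falls shared with pargyline alone (414). Array weights gave 1466 genes lower with pargyline against DMSO, 446 positive and 633 negative differences (153 and 292) and 670 shared falls.

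A replicate block, which pairs equally numbered arrays, gave 275 positive differences. With it 1169 genes rose and 1250 fell when pargyline was added to SAHA. This fit kept 132 of 135 named calls, all but BRIP1, CPT1A and HSPB8. It moved no other main count by over 1.5 times.

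Fitting only the groups compared left 616 genes higher and 614 lower (943 and 1042), 265 shared falls, and 21 mitosis, 13 DNA replication and 5 DNA repair genes lower (44, 29 and 15), and 50 of the 135 named calls were lost. At an adjusted p under 0.01 the counts were 452 higher and 499 lower with pargyline added to SAHA, 592 and 355 with pargyline alone, 28 and 64 for the difference, and 155 and 129 shared, with 8 hypoxia (19) and 11 lysosome genes (18) higher and 16 replication and 9 repair genes lower. With a 2-fold minimum they were 131 and 98, 231 and 42, 33 and 110, and 42 and 10, with 2 hypoxia, 11 ATF4 (22), 1 endoplasmic reticulum folding (13) and 1 lysosome gene higher, and 17 mitosis, 4 replication and 0 repair genes lower.

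Leaving out 1 array gave 607 to 926 genes higher and 632 to 1069 lower with pargyline added to SAHA, 733 to 926 and 479 to 859 with pargyline alone, 78 to 236 positive and 160 to 420 negative differences, and 256 to 385 shared rises and 235 to 431 shared falls. The lists gave 11 to 16 hypoxia, 21 to 22 ATF4, 11 to 13 cholesterol, 11 to 13 folding and 15 to 23 lysosome genes higher, and 37 to 46 mitosis, 22 to 33 replication and 9 to 15 repair genes lower. The cause of these shifts was not tested. With 3 arrays a group and a median standard error of 0.077, small changes were not resolved.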
